A study of Mus musculus with 6 samples.

Results

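Tropomyosins are coiled-coil proteins that pair up and join head to tail along the groove of the actin filament. In striated muscle they work with troponin to control when myosin can reach actin, and in other cells they mark out different actin filaments and decide which motors and severing proteins can use them. Mammals make them from 4 genes, Tpm1, Tpm2, Tpm3 and Tpm4, and alternative first exons and splicing give each gene several products, so probe sets of 1 gene need not read the same RNA. In a nervous tissue such as the retina, cytoskeletal forms are made by neurons and glia, while forms of contractile cells are best known from vessel walls.

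The family was examined in retinas of OC2-KO mice, which lack the cut-domain transcription factor Onecut2, and of their wildtype littermates (OC2-WT). All animals were adult, no other allele or treatment is given for either genotype, and each of the 6 Affymetrix arrays (3 OC2-KO, 3 OC2-WT) carried RNA of whole retina. The family was chosen by the difference between the genotypes on these same arrays, where a single Tpm3 probe set ranked among those with the smallest p-values among the lower ones, and the members are all probe sets annotated to the 4 genes. These were 14 of 45037 probe sets, 4 for Tpm1, 4 for Tpm2, 5 for Tpm3 and 1 for Tpm4. Since that contrast picked the family, differences between OC2-KO and OC2-WT are given here as descriptions with no p-value for a member, and counts of members past a threshold restate the choice and support nothing.

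The number of arrays limits the precision of every value. Arrays with the same replicate number varied together and are called pairs. By the X-inactivation transcript Xist, pair 3 joined an OC2-KO array at a log2 intensity of 7.16 with an OC2-WT array at 14.53, whereas the arrays within pairs 1 and 2 were alike. RNA of pair 3 was also less complete at its 5' end. The 3' control probe set of Actb exceeded its 5' control, on the log2 scale, by 1.41, 0.74 and 3.39 in OC2-KO replicates 1, 2 and 3 and 1.11, 0.71 and 2.95 in OC2-WT replicates 1, 2 and 3 (exact permutation test between genotypes, two-sided and without the pairs, p = 0.6, where 0.1 is the smallest p that 3 against 3 allows). Within each pair the OC2-KO value of Actb was the larger. For the Gapdh controls this held in pairs 1 and 3 but not in pair 2 (-0.319 in OC2-KO and -0.293 in OC2-WT). All 3 Onecut2 probe sets stood higher in every OC2-KO array. They lie at the 3' end of the gene by the study's account, so they are no check on the labels. Of 5 rod genes listed to check the tissue, 4 had a probe set of their own, and the phototransduction gene Gnat1 averaged 15.83 ± 1.04 in OC2-KO and 15.71 ± 1.15 in OC2-WT (log2 intensity, SD, n = 3 each).

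Tpm3 encodes the gamma tropomyosin of slow muscle fibres and a set of short cytoskeletal forms. It lies on chromosome 3 from 90072651 to 90100902 (GRCm38.p6), with 13 RefSeq transcripts and 2 annotated start sites 6870 bases apart. Both start regions are shown because the Tpm3 probe sets disagree and the gene has more than 1 annotated start. Each run gives 250 bases before and 50 bases after a start on the plus strand, from RefSeq on GRCm38.p6, with capitals for matches to the E-box CANNTG and to ATCAAT, a core recognised by Onecut factors.
Tpm3 upstream start, chr3:90072401-90072700: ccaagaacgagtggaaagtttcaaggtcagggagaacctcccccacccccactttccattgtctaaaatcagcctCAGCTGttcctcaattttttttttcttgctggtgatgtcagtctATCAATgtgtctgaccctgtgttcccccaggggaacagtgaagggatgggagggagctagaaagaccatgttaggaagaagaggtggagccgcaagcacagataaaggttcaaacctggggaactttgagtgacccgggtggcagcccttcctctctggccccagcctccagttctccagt
Tpm3 downstream start, chr3:90079271-90079570: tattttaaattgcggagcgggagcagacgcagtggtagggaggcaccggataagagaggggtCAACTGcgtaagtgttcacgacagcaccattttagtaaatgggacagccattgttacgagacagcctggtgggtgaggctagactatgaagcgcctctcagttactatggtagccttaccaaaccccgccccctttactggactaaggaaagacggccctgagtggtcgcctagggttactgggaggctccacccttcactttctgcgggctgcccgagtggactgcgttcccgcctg
On either strand, CANNTG occurred 1 time in each Tpm3 window, as it did in the single windows of Tpm1, Tpm2 and Tpm4, and 72.3% of 32851 promoter windows of the same length hold it. ATCAAT occurred at position -131 from the upstream Tpm3 start and in no other tropomyosin window, against 7.54% of all windows. Tpm1, Tpm2 and Tpm4 had only 1 window each. The Tpm1 window, chr9:67049164-67049463, does not reach the 5' end of this minus-strand gene at 67049672, so its outermost start was not read. Neither ATCGAT, another Onecut core (0.925% of windows), nor TATAAA (13.6%), nor the CArG box of serum response factor (1.63%) was in any of the 5 tropomyosin windows. A match is a description of letters, and the annotation used here does not tie a probe set to either start.

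All 5 Tpm3 probe sets had a lower mean in OC2-KO, but by very different amounts, between -0.02 and -1.81 on the log2 scale. With single arrays left out, 1449996_a_at and 1449997_at could not change sign, because on both every OC2-KO array lay below every OC2-WT array. Nothing is read from their steady sign. The sign of the other Tpm3 probe sets turned in some of these fits (1427260_a_at to 0.18 without OC2-WT replicate 2, 1436958_x_at to 0.08 without OC2-WT replicate 3 and 1427567_a_at to 0.73 without OC2-KO replicate 3). Probe set 1449996_a_at differed most, with log2 intensities of 5.13, 6.80 and 5.99 in OC2-KO replicates 1, 2 and 3 and 7.55, 7.83 and 7.97 in OC2-WT replicates 1, 2 and 3. Every OC2-KO array lay below every OC2-WT array, and OC2-KO replicate 1 was the lowest. The mean was 5.97 ± 0.84 in OC2-KO and 7.79 ± 0.21 in OC2-WT (SD, n = 3 each), a difference of -1.81 ± 0.42 (SE), so that the OC2-KO signal stood at 28.4% of the OC2-WT signal. In a whole-tissue sample, fewer cells of a type and less RNA per cell cannot be told apart. Within pairs 1, 2 and 3 it differed by -2.43, -1.03 and -1.98.

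Probe set 1449997_at, which was designed from the same reference transcript, showed the same direction at a smaller size. It measured 7.05, 7.07 and 6.56 in OC2-KO and 7.49, 8.10 and 7.39 in OC2-WT, again without overlap, and differed by -0.76 ± 0.28 (SE). The pair differences were -0.44, -1.02 and -0.82, so pair 1 had the largest difference on 1449996_a_at and the smallest on 1449997_at. In linear terms OC2-KO stood at 58.9% of OC2-WT on this probe set.

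The other Tpm3 probe sets did not separate the genotypes. For 1427260_a_at, log2 intensities were 10.82, 10.86 and 10.60 in OC2-KO and 10.87, 11.19 and 10.30 in OC2-WT. The OC2-KO values fell inside the range of OC2-WT, with a difference of -0.02 ± 0.28 (SE). On 1436958_x_at, whose suffix marks probes that also match other sequences, OC2-KO arrays gave 6.75, 6.38 and 7.46 and OC2-WT arrays 6.71, 6.87 and 7.74, a difference of -0.24 ± 0.38 (SE).

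Probe set 1427567_a_at split the arrays by pair and not by genotype. It read 6.36, 6.94 and 3.90 in OC2-KO and 6.93, 6.80 and 4.04 in OC2-WT, so both arrays of pair 3 lay far below the other 4. OC2-KO replicate 3 was 2.75 below the mean of the other OC2-KO arrays, and OC2-WT replicate 3 was 2.82 below the mean of the other OC2-WT arrays. The 5' control probe set of Actb was lower in the same arrays, with log2 differences of -2.27 in OC2-KO and -2.00 in OC2-WT, and the part of RNA completeness in the Tpm3 value was not tested. The genotypes differed by -0.19 ± 1.12 (SE), or ± 0.25 (SE) with the pair as a block, and within pairs 1, 2 and 3 by -0.56, 0.14 and -0.14.

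**Figure D1:**
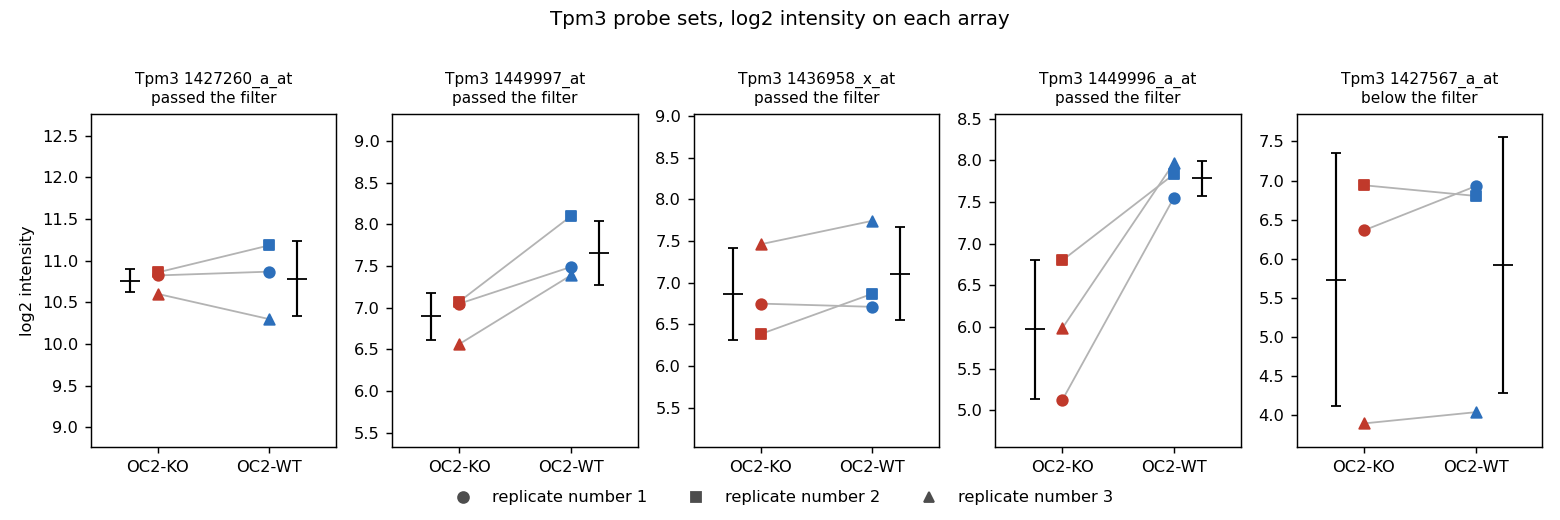
Log2 intensity (vertical axes, whose limits differ by panel) of the 5 Tpm3 probe sets on each array, with OC2-KO left and OC2-WT right, grey lines between the arrays of a pair, and the genotype mean with its SD in black (n = 3). On 1449996_a_at the OC2-KO arrays lie between 5.13 and 6.80 and the OC2-WT arrays between 7.55 and 7.97, while on 1427567_a_at both arrays numbered 3 lie near 4.

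The disagreement among Tpm3 probe sets was also read within each array, where the scaling of an array cancels. The log2 intensity of 1427260_a_at minus that of 1449996_a_at was 5.70, 4.06 and 4.62 in OC2-KO and 3.32, 3.35 and 2.33 in OC2-WT, a shift of 1.79 without overlap. Against 1449997_at the same contrast was 3.78, 3.79 and 4.04 in OC2-KO and 3.38, 3.09 and 2.91 in OC2-WT, a shift of 0.74 that again left no overlap. Of the 10 contrasts that the 5 probe sets allow, 3 separated the genotypes. The third set 1449997_at against 1449996_a_at, with 1.92, 0.27 and 0.58 in OC2-KO and -0.064, 0.26 and -0.58 in OC2-WT, where OC2-KO replicate 2 and OC2-WT replicate 2 nearly touch. All 3 involve 1449996_a_at or 1449997_at, which were lower without overlap in the contrast that picked the family. The count therefore restates the choice, and nothing is read from it. Such a contrast describes unequal signal on these arrays and not that one of the probe sets was unaltered.

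Over the 6 arrays the Tpm3 probe sets did not vary as 1 profile. As a description, Pearson's r was 0.72 between 1449996_a_at and 1449997_at and -0.0012 between 1449996_a_at and 1427260_a_at. It was 0.83 between 1427260_a_at and 1427567_a_at and -0.94 between 1436958_x_at and 1427567_a_at. Both arrays of pair 3 stood below the other 4 on 1427260_a_at and 1427567_a_at and above them on 1436958_x_at. The r values share 6 arrays that fall into pairs.

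Low signals were set aside by keeping probe sets with a mean log2 intensity above 7 in at least 1 genotype. The filter kept 8 of the 14 tropomyosin probe sets, namely 3 of Tpm1, 4 of Tpm3, the 1 of Tpm4 and none of Tpm2. Of the 4 kept for Tpm3, 3 passed only through OC2-WT, so their place among the kept probe sets already depends on a higher OC2-WT mean. Across 1817 genes with 3 or more kept probe sets, the highest minus the lowest difference within a gene had a median of 0.33. For Tpm3 it was 1.79, a width set by 1449996_a_at and so by the contrast that picked the family. Its place among genes is a description only (11 genes, 0.605%, were at least as wide, Tpm3 itself included). The width was 0.74 when the filter was put on the mean of all 6 arrays, a choice made after seeing the data. That filter removes 1449996_a_at and 1436958_x_at, whose means over the 6 arrays were 6.88 and 6.99. Tpm3 then has fewer than 3 kept probe sets, so 0.74 has no place among the 1817 genes. By pair the Tpm3 width was 2.47, 0.71 and 2.28, smallest in pair 2.

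**Figure D2:**
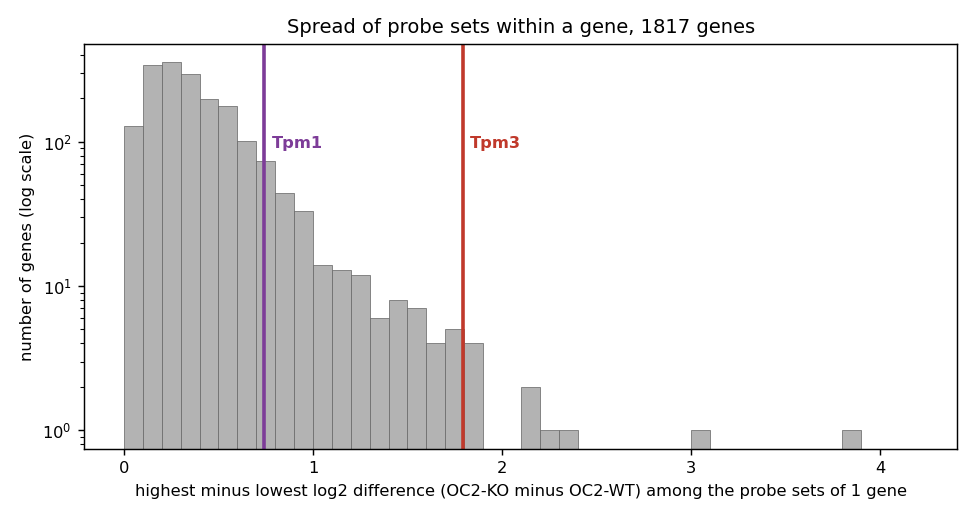
Number of genes (vertical axis, log scale) by the highest minus the lowest log2 difference, OC2-KO minus OC2-WT, among the kept probe sets of a gene (horizontal axis), for 1817 genes with 3 or more. Vertical lines mark Tpm3 at 1.79 and Tpm1 at 0.74.

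Tpm1 encodes alpha tropomyosin, the main form of heart and fast muscle, and many non-muscle forms, and it lies on chromosome 9 from 67022590 to 67049672. Its brightest probe set, 1423721_at, measured 9.21, 9.70 and 9.66 in OC2-KO and 9.71, 9.78 and 9.81 in OC2-WT. The genotypes did not overlap, but OC2-KO replicate 2 lay just under OC2-WT replicate 1, and the difference was -0.24 ± 0.22 (SE). Without OC2-KO replicate 1 it was -0.088. Probe set 1423049_a_at was lower in all 3 pairs with overlapping genotypes, at 7.08 ± 0.33 in OC2-KO and 7.42 ± 0.26 in OC2-WT (SD, n = 3 each). Probe set 1456623_at had the opposite sign, 7.28 ± 0.32 in OC2-KO and 6.88 ± 0.25 in OC2-WT, and was kept only through OC2-KO. The width of the kept Tpm1 differences, 0.74, was reached by 192 of 1817 genes (10.6%), Tpm1 itself included.

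The largest tropomyosin difference of all belonged to a Tpm1 probe set at the bottom of the scale. Probe set 1447713_at had log2 intensities of 4.86, 3.35 and 2.71 in OC2-KO and 0.64, -0.32 and 0.83 in OC2-WT, a difference of 3.26 ± 0.65 (SE) without overlap. In linear units these were 29.1, 10.2 and 6.55 in OC2-KO and 1.56, 0.802 and 1.78 in OC2-WT, on arrays whose median intensity lay between 94.9 and 110. With 32 added to every intensity before the log, an alternative chosen after seeing the data, the difference was 0.47. Among 9132 probe sets with a mean log2 intensity of 4 or less, the median size of the difference was 0.72.

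Tpm2 encodes beta tropomyosin, best known from slow skeletal and smooth muscle, and lies on chromosome 4 from 43513726 to 43523583. None of its 4 probe sets passed the filter. Probe set 1419738_a_at read 5.31, 6.54 and 7.56 in OC2-KO and 6.88, 6.13 and 7.79 in OC2-WT, with pair 3 highest in both genotypes and a difference of -0.46 ± 0.71 (SE) that turned to 0.12 without OC2-KO replicate 1. For 1419739_at the means were 6.39 ± 0.32 in OC2-KO and 6.22 ± 0.32 in OC2-WT (SD, n = 3 each), and OC2-KO was higher in all 3 pairs, by 0.15, 0.18 and 0.18, although the difference of means turned to -0.011 without OC2-KO replicate 3.

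The remaining Tpm2 probe sets were dim and scattered. On 1425028_a_at both arrays of pair 2 stood low, at 4.25 in OC2-KO and 2.73 in OC2-WT, against 6.27 to 6.78 in the other 4 arrays, and the genotypes differed by 0.60 ± 1.24 (SE), or by -0.64 without OC2-WT replicate 2. Probe set 1449577_x_at gave 2.09, 3.98 and -0.45 in OC2-KO and 4.93, 4.80 and 5.58 in OC2-WT, a difference of -3.23 ± 1.11 (SE) without overlap. Its pair differences ran from -0.82 to -6.03, it shares its source sequence with 1419738_a_at and 1419739_at, and with a floor of 6 on the log2 scale its difference was 0.

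Tpm4, on chromosome 8 from 72135288 to 72153142, makes a short tropomyosin of non-muscle cells. Its single probe set 1433883_at measured 9.29, 9.14 and 9.56 in OC2-KO and 9.56, 9.12 and 9.57 in OC2-WT. The ranges nearly coincided, and the difference was -0.09 ± 0.24 (SE), or 0.0086 without OC2-KO replicate 2.

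**Figure D3:**
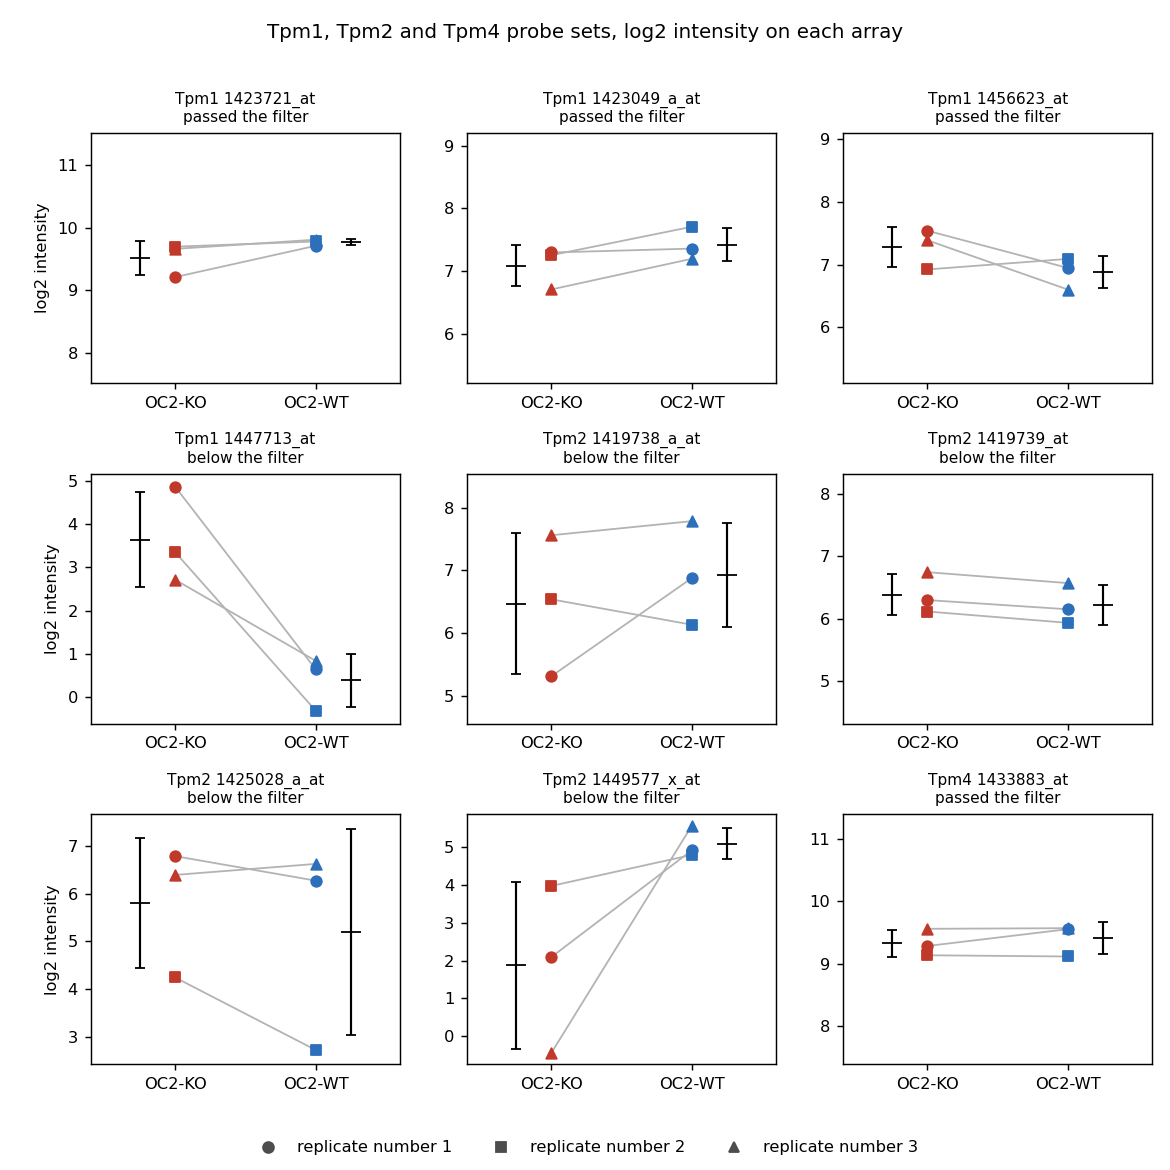
Log2 intensity (vertical axes, whose limits differ by panel) of the 9 Tpm1, Tpm2 and Tpm4 probe sets on each array, drawn as for Tpm3. The widest gaps, on Tpm1 1447713_at and Tpm2 1449577_x_at, lie below the filter, and Tpm4 averages 9.33 in OC2-KO and 9.41 in OC2-WT.

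Over the whole family 10 of 14 probe sets had a lower mean in OC2-KO and 4 a higher one, beside 50.1% lower over all probe sets. Some of the 14 share a source sequence and are not separate readings. The median difference was -0.22 over the 14 and -0.0013 over all 45037 probe sets. Lower values without overlap were found for 4 of 14, where 2.18% of all probe sets showed this, and higher values without overlap for 1 of 14, where 2.75% did. Among kept probe sets the count was 3 of 8, beside 1.56% of 21176. Because the family was picked on this contrast, nothing is read from these counts.

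At an unadjusted p of 0.05, limma counted 1449996_a_at and 1449997_at, 2 of the 8 kept tropomyosin probe sets, beside 0.987% of all kept probe sets. After Benjamini-Hochberg adjustment over all 21176, limma called 0 of the 8, and 0% of all kept probe sets. Both had passed the filter only through OC2-WT, and a Tpm3 probe set was picked for its p-value in this fit, so nothing is read from the count. Probe sets of a like level give the scale of these differences. The median size was 0.33 over 7847 probe sets with a mean log2 intensity between 5.5 and 7, where 1449996_a_at lies, and 0.18 over 6936 between 7 and 8.5, where 1449997_at lies.

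**Figure D4:**
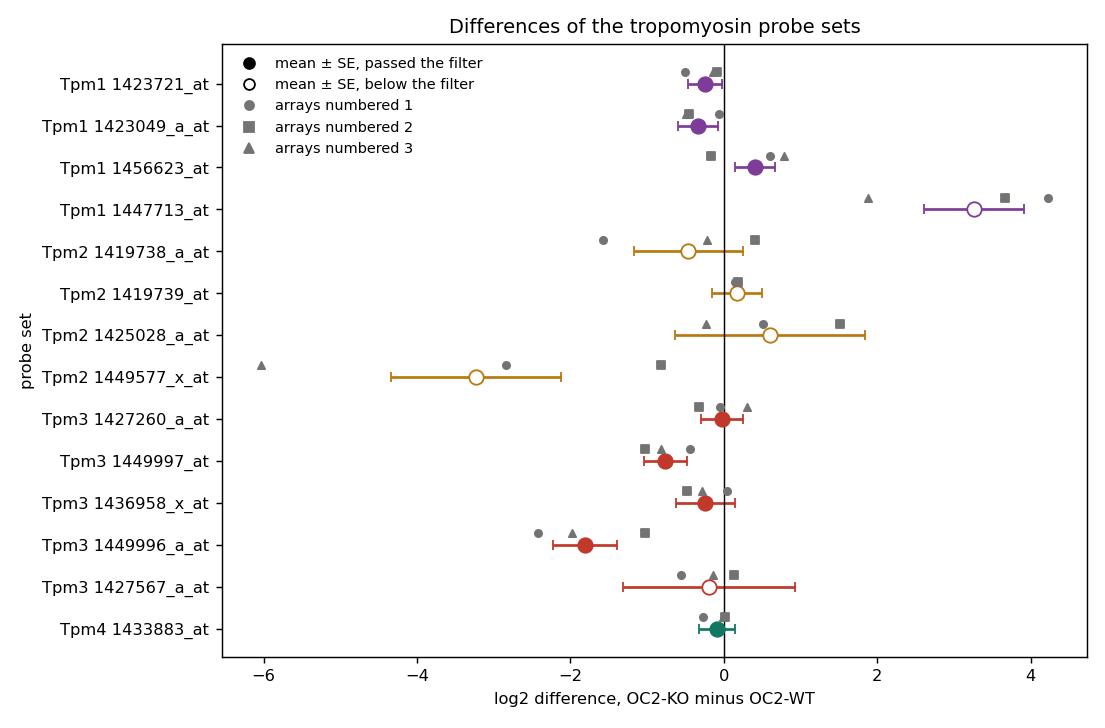
Log2 difference, OC2-KO minus OC2-WT (horizontal axis), of the 14 tropomyosin probe sets (vertical axis), with large points for the mean, bars for limma's SE, filled where the probe set passed the filter and open where it did not, and small grey symbols for the 3 pairs. Tpm3 spans -1.81 to -0.02, and the points farthest from 0, at 3.26 and -3.23, are open.

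The arrays of pair 3 stood apart from the other 4 arrays on 7 of the 14 tropomyosin probe sets, below them on 3 and above them on 4. Over all probe sets 13.4% lay below and 15.2% above in the same way. On 1449996_a_at and 1449997_at they could not stand apart in this way, because every OC2-KO array lay below every OC2-WT array. On 1449997_at replicate 3 was the lowest in both genotypes. Measured from the mean of the other arrays of its genotype, it lay at -0.50 in OC2-KO and -0.41 in OC2-WT. For 1449996_a_at these values were 0.02 and 0.28. Without both arrays of pair 3, 1449996_a_at differed between genotypes by -1.73 and 1449997_at by -0.73.

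Genes that act with tropomyosin were taken from 6 lists of 42 genes, each read on its brightest probe set, of which 28 were kept. Of these, 15 were lower and 13 higher in OC2-KO, with a median difference of -0.0095 beside -0.0084 over all kept probe sets. Among all kept probe sets 51.9% were lower. None of the 28 reached an unadjusted p of 0.05 in limma, where 0.987% of all kept probe sets did, and 0 passed adjustment.

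Tropomodulins cap the slow end of actin filaments and bind the end of the tropomyosin chain there. The 3 kept genes of this list were all lower in mean with overlapping genotypes. Tmod1 averaged 7.44 ± 0.56 in OC2-KO and 7.87 ± 0.31 in OC2-WT, and Tmod2, the neuronal member, averaged 9.29 ± 0.50 in OC2-KO and 9.63 ± 0.36 in OC2-WT (SD, n = 3 each). Tmod3 differed by -0.05 ± 0.23 (SE). Below the filter, the muscle genes Tmod4 and Lmod1 differed by 1.21 ± 1.22 and 0.54 ± 0.63 (SE).

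Troponins sit on tropomyosin in striated muscle, where the T subunit binds it directly. The slow muscle gene Tnnt1 measured 10.04, 9.65 and 9.10 in OC2-KO and 8.89, 9.16 and 8.68 in OC2-WT, higher in each pair but overlapping across pairs, a difference of 0.68 ± 0.30 (SE). Tnnc1, the calcium-binding subunit of slow and cardiac muscle, differed by -0.01. Below the filter, Tnni2, an inhibitory subunit of fast muscle, read 6.44, 5.09 and 4.66 in OC2-KO and 1.65, 1.85 and 2.09 in OC2-WT, and Tnnt2, the cardiac T subunit, differed by 1.64 ± 0.45 (SE). Neither of these overlapped between genotypes, but their sizes rest on dim signals.

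Of the actins and the proteins that share the filament with tropomyosin, none separated the genotypes among those kept. The kept actins ran from -0.03 to 0.38, with Acta1 of skeletal muscle at 0.38 ± 0.47 (SE) and the smooth muscle gene Acta2 at 0.15 ± 0.40 (SE), and the enteric smooth muscle gene Actg2 lay below the filter at -1.34 ± 1.11 (SE). All 7 genes of non-muscle myosin II, the motor whose access tropomyosin sets, were kept and ran from -0.18 (Myl6) to 0.12 (Myl12b), with the heavy chain gene Myh10 at -0.14. The list of cofilins and other severing or crosslinking proteins ran from -0.06 to 0.54, the highest being the severing protein gene Gsn at 0.54 ± 0.36 (SE), followed by Dstn at 0.31 and the bundling protein gene Fscn1 at 0.19. Kept calponins, transgelins and caldesmon ran from -0.25 to 0.32 (Tagln2), and the smooth muscle genes Cnn1 and Tagln lay below the filter at 1.36 ± 1.55 and -0.37 ± 1.13 (SE).

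Marker genes of other cells moved beside the Tpm3 values as follows, and their part in them was not tested. Of 7 horizontal cell genes 5 were kept, and all 5 were lower in OC2-KO, where 51.9% of all kept probe sets were lower. Their median difference was -0.57. Their summed level (log2 of the summed intensities) ran from 12.88 to 13.37 in OC2-KO and from 13.59 to 13.86 in OC2-WT without overlap. Below the filter, Lhx1 differed by -1.63 ± 0.82 (SE) without overlap, and Gja10 went the other way, by 1.29 ± 1.18 (SE) with overlap. Onecut1 overlapped between genotypes, at 2.82, 6.64 and 7.22 in OC2-KO and 6.55, 7.61 and 7.93 in OC2-WT, and its difference of -1.80 ± 1.09 (SE) includes OC2-KO replicate 1, which lay far below the other arrays. The calcium-binding protein gene Calb1 and the cytoskeletal GTPase gene Septin4 differed by -0.76 and -0.57 without overlap. The study also named Calb1 and Septin4 from these arrays, so their values here are no separate evidence. These genes are the brightest of the 5 and weigh most in the summed level, and the median is the value of Septin4. Onecut1, with means of 5.56 in OC2-KO and 7.36 in OC2-WT, passed the filter only through OC2-WT. Nothing is read from the count, the median or the sum.

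For contractile cells, and for Müller glia, the levels overlapped between genotypes. Of 8 smooth muscle and pericyte genes 3 were kept, with a summed level of 9.67 to 10.83 in OC2-KO and 9.85 to 10.50 in OC2-WT. The smooth muscle myosin gene Myh11 was dim throughout, at 4.15 ± 1.95 in OC2-KO and 3.65 ± 2.16 in OC2-WT (SD, n = 3 each). Of 7 skeletal muscle genes 2 were kept, at 7.93 to 8.98 in OC2-KO and 8.13 to 8.66 in OC2-WT. The 7 Müller glia genes were all kept, at 15.02 to 15.53 in OC2-KO and 15.28 to 15.43 in OC2-WT.

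Lens genes differed widely between arrays. The summed level of the 5 lens genes ran from 14.39 to 15.19 in OC2-KO and from 11.80 to 15.37 in OC2-WT, and the lens channel gene Mip was at 0.89 in OC2-WT replicate 3, against 6.23 to 8.86 in OC2-KO and 7.20 to 7.79 in the other OC2-WT arrays. Without OC2-WT replicate 3, 1449996_a_at differed by -1.72 and 1449997_at by -0.90. The 4 kept astrocyte genes were higher in mean, with a median of 0.26. The intermediate filament gene Gfap differed by 1.40 ± 0.49 (SE) without overlap. The other kept genes of this list overlapped between genotypes, from 0.03 (S100b) to 0.28 (Pdgfra). The study also named Gfap from these arrays, so its value is no separate evidence, and RNA of whole retina does not show which cells made it. The 3 kept microglia genes had a median of 0.28. Endothelial and pigment epithelium genes had medians of 0.35 (3 kept) and -0.52 (4 kept), with overlapping sums.

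The probe sets whose profile over the 6 arrays was most like that of 1449996_a_at belonged to other pathways. By Pearson's r over 6 arrays, as a description, they were Pstk (0.997), a kinase of selenocysteine synthesis, the potassium channel gene Kcnu1 (0.996), the ubiquitin ligase gene Trim37 (0.978), the microRNA processing gene Dgcr8 (0.977) and Bmerb1 (0.975). Their differences were smaller than that of the Tpm3 probe set, from -0.82 for Kcnu1 to -0.33 for Bmerb1, and 98 of 18709 named probe sets had an r above 0.9. Since 1449996_a_at stands here for its genotype difference, probe sets with a like profile are bound to be lower in OC2-KO. Pstk (6.58 in OC2-KO, 7.015 in OC2-WT) and Kcnu1 (6.32 and 7.14) also passed the filter only through OC2-WT. Nothing is read from their direction.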

How the data were processed

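Total RNA of adult retina was amplified, biotin-labelled and hybridised to Affymetrix GeneChip mouse genome arrays, 1 per sample. The deposited values are linear intensities that the authors background-adjusted and normalized with MAS5 (version not given in the sources used here), with a 2% trimmed mean near 500 on every array; a shift common to all genes would be lost by this scaling. Scanner files and detection calls were not used here.

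Groups and replicate numbers came from the sample titles. Gene names came from the platform annotation, 34945 probe sets with 1 symbol, 932 with several and 9160 with none, of which 34741 matched a GRCm38.p6 gene table by gene number. The log2 of each intensity was taken and 64 control probe sets were left out. Those with a mean above 7 in either genotype, 21176, were fitted with limma 3.58.1 in R 4.3.3 (lmFit and eBayes, two-sided, 4 residual degrees of freedom, Benjamini-Hochberg threshold 0.05). SEs of probe sets below the filter came from the fit without a filter. The fits were checked on simulated data. The labels do not say that arrays came from separate animals, and p-values then reflect only array-to-array spread, which may be technical.

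The replicate numbers pair the arrays by the data: deviations from genotype means correlated at 0.576, 0.590 and 0.585 within numbers and at -0.429 to -0.135 between them. The members and lists were chosen with earlier results of these data known. Named are all tropomyosin probe sets, at most 3 genes per pathway list by size of difference on the brightest probe set, marker genes chosen after their values were seen, and the 5 probe sets most like the Tpm3 probe set of largest difference; troponin Tnnc1, Tmod2 and Tmod3 were added after their values were seen. Alternatives were a filter at 8 or none, median centring or quantile normalization, a floor of 6, a replicate block, an intensity trend, the methods' t-test, and fits with arrays left out. A pseudocount of 32, the block with a trend, and a filter on the mean of all arrays were added after seeing the data.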

Additional observations from a re-analysis of the deposited data

How the results depend on the processing

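With the replicate number as a block, which uses 2 residual degrees of freedom, limma counted 887 probe sets at an unadjusted p of 0.05, against 209 without it. The tropomyosin probe sets counted were 1449996_a_at and 1449997_at in both, and 0 probe sets passed adjustment in either. The block with an intensity trend, added after seeing the data, counted 779 unadjusted and 6 adjusted, none of the 6 a tropomyosin. No filter gave 1144 and a filter at 8 gave 127, and leaving out 1 array gave 209 to 560, the highest without OC2-KO replicate 2. The 2 tropomyosin probe sets counted became 0 with a filter at 8, which removes both. The count was 1, namely 1449996_a_at, without both arrays of pair 3, with an intensity trend and with the methods' t-test, which counted 300 of all probe sets unadjusted and 0 adjusted. Without a filter it was 3, namely 1447713_at, 1449577_x_at and 1449996_a_at. Leaving out 1 array gave 1 to 2, the 1 without OC2-KO replicate 3 or OC2-WT replicate 2 being 1449996_a_at. Kept tropomyosin probe sets lower without overlap numbered 3, but 1 with a filter at 8 and 2 with quantile normalization. They numbered 5 without pair 3, and 3 to 5 with 1 array left out (5 without OC2-WT replicate 3). With fewer arrays a lack of overlap is easier to reach. The share over all probe sets is not given at these settings, so nothing is read from the rise. The median difference of the kept tropomyosin probe sets, -0.24, was -0.087 with a filter at 8. It ran from -0.32 without OC2-WT replicate 1 to -0.088 without OC2-KO replicate 1. The Tpm3 width of 1.79 was 0.74 when the filter was set on the mean of all 6 arrays, chosen after seeing the data. Both 1449996_a_at and 1436958_x_at are then removed, which leaves fewer than 3 Tpm3 probe sets. A filter at 8 leaves 1 Tpm3 probe set and no width. Of 168 values of single probe sets, 11 changed sign, in 7 of the 14 probe sets, and 4 moved by more than the replicate spread. The replicate block gives the same difference by design. Probe sets without overlap could not change sign when arrays were left out. These counts are therefore no measure of stability. The difference of 1449996_a_at ran from -2.23 to -1.38 and that of 1449997_at from -0.90 to -0.54. Dim probe sets have no detection call here, which limits what their differences show.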
